A study of Mus musculus with 8 samples.

Results

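YUMM5.2, a mouse melanoma cell line, was read here for 10 genes named as targets of the tumour suppressor p53 or as effectors of apoptosis: Mdm2, Cdkn1a, Ccng1, Bax, Bbc3, Pmaip1, Fas, Tnfrsf10b, Sesn1 and Trp53inp1. The genes were taken by symbol, and each symbol matched 1 of the 55492 rows of the gene tables, so all 10 had values. RNA came from cells cultured for 20 h, in 4 libraries with DMSO as the control reagent and in 4 with 4-OI, which the labels describe as permeable itaconate. Workers in this field write 4-OI for 4-octyl itaconate, an ester of a metabolite that macrophages make. The strain label of every library is C57B/6J. The dose of 4-OI is not in the labels. A single comparison, 4-OI against DMSO, asks which of these transcripts differ in tumour cells given the ester.

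In healthy cells p53 is kept scarce by the ubiquitin ligase MDM2. Damage or stress frees p53 to switch on genes that halt the cell cycle, repair DNA, restrain growth signalling, or open the mitochondrial and death receptor routes of apoptosis. Several of the same genes also answer to other factors, such as ATF4 in the integrated stress response and FOXO proteins. As background from the field and not from the labels, YUMM5.2 was derived from a mouse melanoma with mutant Braf and loss of Trp53, the gene of p53, so both groups would share that loss.

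Trp53 had counts of 44, 38, 32 and 51 in DMSO replicates 1 to 4, against 30, 51, 23 and 40 with 4-OI. Per length this was 1.42 ± 0.117 TPM with DMSO and 1.12 ± 0.394 TPM with 4-OI (SD, n = 4), where TPM is the authors' length-scaled share of all transcripts, and 14.5% of the tested genes had a lower mean TPM. The groups overlapped, and the log2 fold change of -0.34 was not called (standard error 0.21, edgeR adjusted p = 0.229). Without 4-OI replicate 2, which had the highest count of its group, it was -0.56 (edgeR adjusted p = 0.0408), and without 4-OI replicate 3 it was -0.16. A gene total does not show which exons the remaining reads cover. Cdkn2a, whose locus encodes the cell cycle inhibitor p16 and the MDM2 antagonist ARF, was by contrast abundant, at 751 ± 21.1 TPM with DMSO and 814 ± 10.9 TPM with 4-OI (SD, n = 4).

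Total counts ranged from 22962963 to 31361677 per library. Of 7 markers of the melanocyte lineage, only Mitf was above 1 TPM (2.21 to 3.57 TPM over the 8 libraries), while Sox10, Tyr, Tyrp1, Dct and Mlana were at 0.07 TPM or lower in every library and Pmel reached at most 0.71 TPM. Markers of leukocytes, endothelium, epithelium and fibroblasts were at 0.80 TPM or lower, except Cd68 (1.82 to 2.98 TPM), Pdgfra (29.6 to 32.8 TPM) and Col1a1, which fell by 1.39 on the log2 scale. The summed TPM of the melanocyte markers was 2.37 to 3.05 with DMSO and 3.51 to 3.97 with 4-OI, and that of the fibroblast markers was 34.8 to 37.2 with DMSO and 33.9 to 34.8 with 4-OI. That of the leukocyte markers was 2.72 to 3.08 and 2.15 to 2.98. Mitf made up most of the melanocyte sum and was called higher (log2 fold change 0.64). Pdgfra made up most of the fibroblast sum and was called higher (0.095), while Col1a1 fell. Whether these differences have a part in the results was not tested. In such bulk RNA, a change in the number of cells of a state and a change of RNA per cell cannot be told apart. The labels count 4 independent experiments per condition without saying how the cultures were kept apart, so p-values measure the spread between these libraries, which may in part be technical.

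With 4-OI the members did not move as 1 block. The p53 feedback regulator Mdm2, the cyclin Ccng1, the pore former Bax, the death receptor Tnfrsf10b and the stress genes Sesn1 and Trp53inp1 rose, whereas the death receptor Fas and the BH3-only killers Bbc3 and Pmaip1 fell, and Cdkn1a, the classical cell cycle brake, was not called. These were 6 members higher and 3 lower at an edgeR adjusted p under 0.05. Over all 13531 genes tested, 38.8% were called, 19.3% as higher and 19.6% as lower. In 8 members no 4-OI library overlapped any DMSO library in CPM (counts scaled to a common library size by the TMM method), against 35.4% of all tested genes. All changes were below 2-fold in size: the members' median absolute log2 fold change was 0.32, against 0.12 over all tested genes, and their median with sign was 0.15 against 0.00. All 10 members passed the filter on low counts. The members were chosen with earlier results of these data known, which may have shaped these comparisons with all tested genes.

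**Figure D1:**
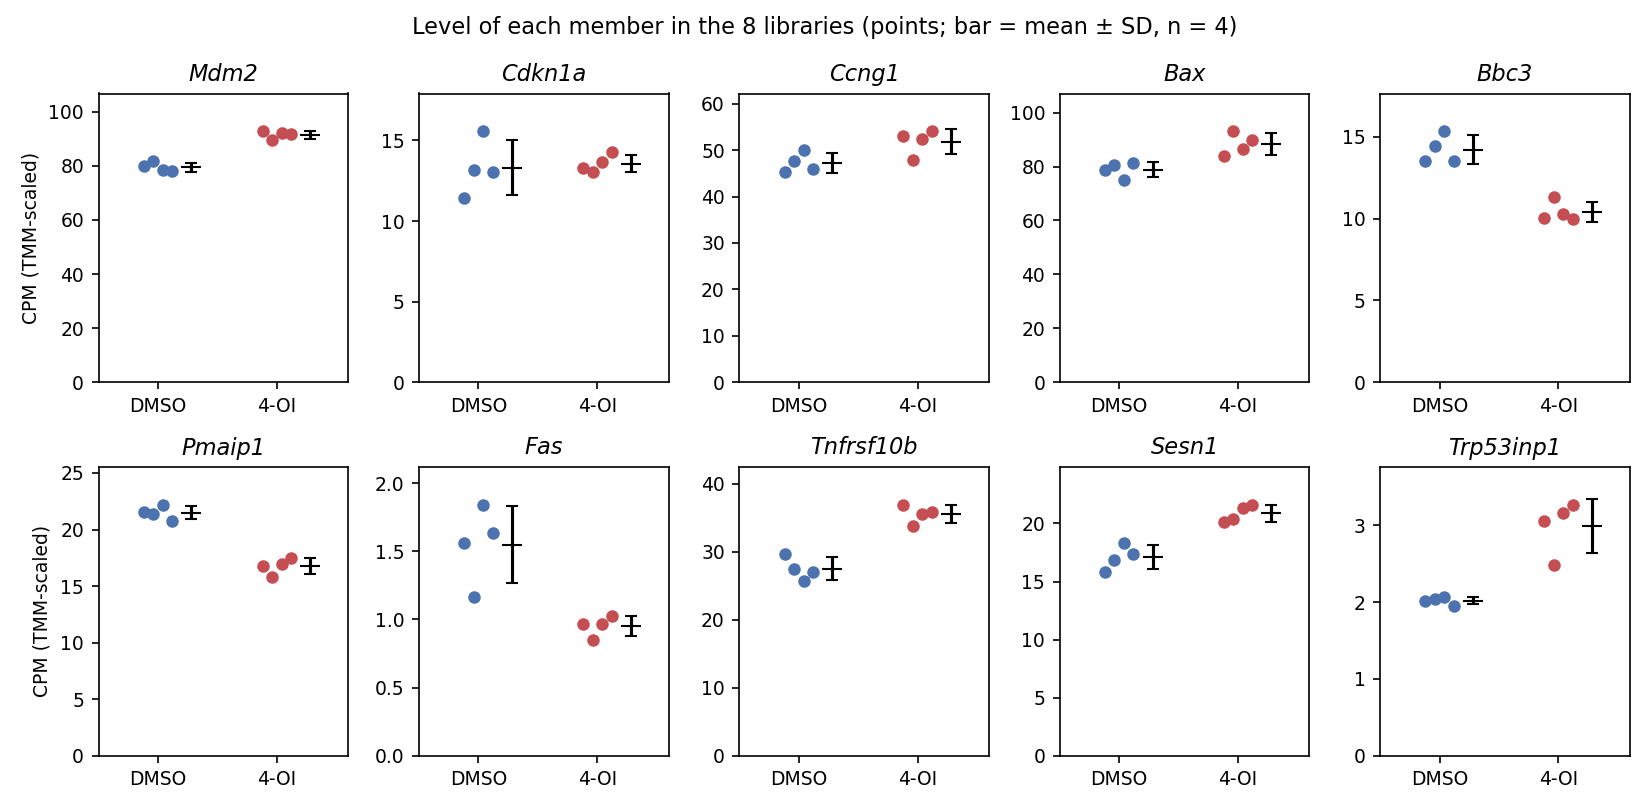
CPM of each member (vertical axis, from 0) in the 4 DMSO libraries (blue) and the 4 4-OI libraries (red), with the mean and SD of each group in black. The groups overlap in Cdkn1a and Ccng1 and are apart in the other 8 panels, with 4-OI below DMSO for Bbc3, Pmaip1 and Fas.

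**Figure D2:**
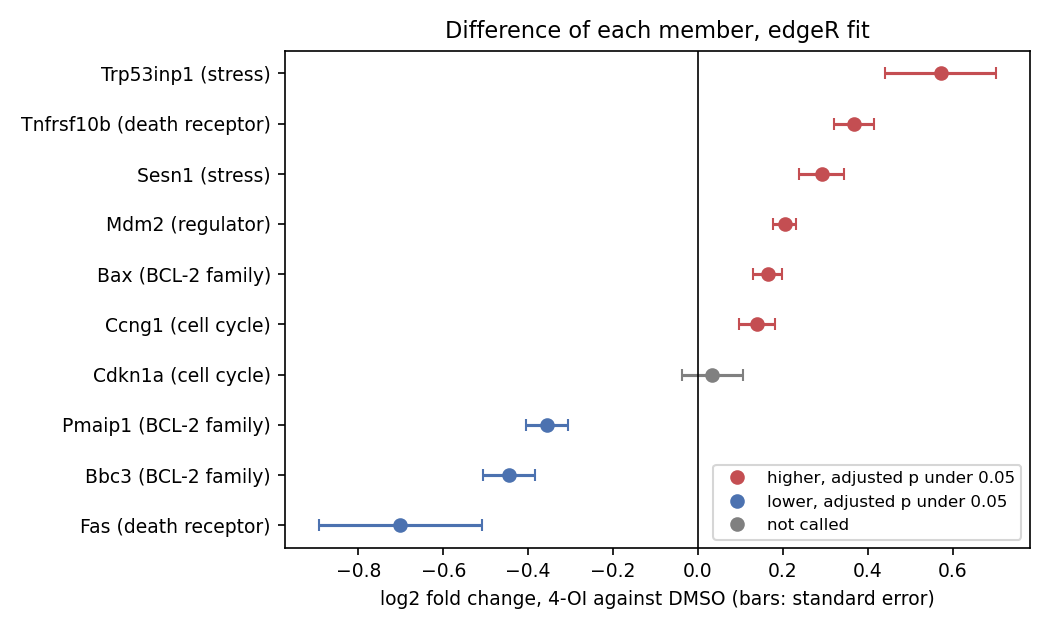
Log2 fold change of each member, 4-OI against DMSO, from the edgeR fit (points) with its standard error (bars); red and blue mark members called higher and lower. Values run from -0.70 for Fas to 0.57 for Trp53inp1, with Cdkn1a at 0.03.

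The members differed in which of their promoter windows held a p53 half-site. RefSeq windows from 250 bases before to 50 after a transcript start (GRCm38.p6) were found for 7 members, in 11 windows; Pmaip1, Tnfrsf10b and Trp53inp1 had no entry. The p53 half-site consensus, which reads the same on both strands, stood in windows of 5 of the 7 members: Bax, Mdm2, Ccng1, Sesn1 and Cdkn1a. It stood in 9.55% of the 27025 genes with a window and in 8.36% of all 32851 windows. Of those 5 genes, 4 rose and Cdkn1a was not called, while Fas and Bbc3, both lower, had no match in their windows. Tnfrsf10b and Trp53inp1, both higher, and Pmaip1, lower, could not be scored. The members were named as p53 targets, so a share above that of all genes follows in part from that choice. Whether the half-site has a part in the direction of change was not tested. The antioxidant response element TGACNNNGC, searched on both strands, stood in 1 of the 11 windows, that of the second Cdkn1a start, and in 12.4% of all windows. The C/EBP-ATF element TGATGNAA, also searched on both strands, stood in none of the 11 and in 3.97% of all windows. A match in letters is a description and not a binding site, and a missing match says nothing of binding elsewhere in the gene.

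The stretches below run 5′ to 3′ on the gene's own strand from base 250 to base 31 before the start, with each p53 half-site in capitals. They are shown so that the half-sites can be seen in place in the 4 members that rose and in Cdkn1a, with Fas, which had none. The windows of Bbc3, the first window of Sesn1 and the second of Cdkn1a also held no half-site and are not printed. The stretches were picked with matches and calls known. They therefore cannot show whether half-site and direction are related, which was not tested.
Mdm2 (chr10:117710789-117711008, minus strand): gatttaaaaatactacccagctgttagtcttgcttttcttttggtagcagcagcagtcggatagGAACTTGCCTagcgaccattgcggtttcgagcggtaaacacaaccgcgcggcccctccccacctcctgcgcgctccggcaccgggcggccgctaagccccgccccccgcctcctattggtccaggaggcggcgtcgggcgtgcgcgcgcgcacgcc
Bax (chr7:45466929-45467148, minus strand): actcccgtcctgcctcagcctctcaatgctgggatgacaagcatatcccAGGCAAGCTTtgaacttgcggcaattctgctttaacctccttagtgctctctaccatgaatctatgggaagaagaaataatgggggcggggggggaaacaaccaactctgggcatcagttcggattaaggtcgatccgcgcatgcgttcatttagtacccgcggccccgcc
Ccng1 (chr11:40755317-40755536, minus strand): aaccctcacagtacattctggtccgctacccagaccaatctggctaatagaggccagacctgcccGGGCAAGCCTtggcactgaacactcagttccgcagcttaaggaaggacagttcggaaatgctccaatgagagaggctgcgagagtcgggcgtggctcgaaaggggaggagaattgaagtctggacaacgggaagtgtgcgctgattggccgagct
Sesn1 (chr10:41887189-41887408, plus strand): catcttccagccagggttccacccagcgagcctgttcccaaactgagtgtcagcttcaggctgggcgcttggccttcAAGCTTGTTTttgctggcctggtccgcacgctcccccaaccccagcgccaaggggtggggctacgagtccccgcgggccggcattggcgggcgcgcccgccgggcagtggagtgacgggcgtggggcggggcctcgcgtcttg
Cdkn1a (chr17:29090729-29090948, plus strand): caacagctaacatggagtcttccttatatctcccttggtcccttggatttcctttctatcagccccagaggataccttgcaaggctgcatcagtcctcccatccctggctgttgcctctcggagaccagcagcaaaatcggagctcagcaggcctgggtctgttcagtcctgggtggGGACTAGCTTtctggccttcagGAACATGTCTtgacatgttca
Fas (chr19:34290409-34290628, plus strand): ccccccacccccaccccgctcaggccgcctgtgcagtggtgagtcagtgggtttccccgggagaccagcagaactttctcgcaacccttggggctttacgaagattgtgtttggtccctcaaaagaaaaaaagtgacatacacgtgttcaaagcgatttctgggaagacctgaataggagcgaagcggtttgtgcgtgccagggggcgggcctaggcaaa
The half-site began 201 bases before the start in Bax, 186 in Mdm2, 185 in Ccng1 and 173 in Sesn1 (the second of 2 windows of that gene). Cdkn1a had 2, beginning 73 and 51 bases before its start.

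Mdm2 (GRCm38 chromosome 10, 117688875 to 117710758, minus strand) encodes the ligase that marks p53 for destruction and is itself a p53 target. It had 79.9, 81.8, 78.3 and 78.2 CPM in DMSO replicates 1 to 4, against 92.9, 89.5, 92.3 and 91.7 CPM in 4-OI replicates 1 to 4. The groups did not overlap, and the spread within each was small. The increase was 15.2%, or 0.20 as a log2 fold change (standard error 0.03, edgeR adjusted p = 6.00e-06). Mdm2's relative Mdm4, which also restrains p53, had 63.3 ± 2.81 CPM with DMSO and 63.7 ± 3.63 CPM with 4-OI (SD, n = 4), a log2 fold change of 0.01 with a standard error of 0.04, and was not called (edgeR adjusted p = 0.908).

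Cdkn1a (chromosome 17, 29090976 to 29100727, plus strand) encodes p21, which inhibits cyclin-dependent kinases. It had 11.5, 13.2, 15.6 and 13.03 CPM in DMSO replicates 1 to 4, against 13.3, 13.04, 13.6 and 14.3 CPM in 4-OI replicates 1 to 4. The DMSO libraries spread widely around the 4-OI values, with replicate 1 lowest and replicate 3 highest. Their coefficient of variation was 12.8%, where counting error alone gives 5.38%, against 3.90% among the 4-OI libraries. On the log2 scale the difference was 0.03 (standard error 0.07, edgeR adjusted p = 0.746), and leaving out 1 library at a time moved it between -0.03, without DMSO replicate 1, and 0.11, without DMSO replicate 3. No difference was detectable with this spread.

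Ccng1 (chromosome 11, 40748552 to 40755311, minus strand) encodes cyclin G1, a p53 target that acts on MDM2 through a phosphatase. It had 45.2, 47.6, 50.02 and 45.9 CPM in DMSO replicates 1 to 4, against 53.02, 47.9, 52.4 and 54.1 CPM in 4-OI replicates 1 to 4. Of the 4-OI libraries, 3 lay above all DMSO libraries and 4-OI replicate 2 lay inside the DMSO range. The increase of 10.1% was called (log2 fold change 0.14, standard error 0.04, edgeR adjusted p = 0.0119), but not without DMSO replicate 1 (0.12, edgeR adjusted p = 0.0520) and not in the limma test of log2(TPM + 1) (0.14, adjusted p = 0.0850).

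Among the members of the BCL-2 family, the pore former Bax and the BH3-only genes Bbc3 and Pmaip1 moved in opposite directions. Bax (chromosome 7, 45461697 to 45466898, minus strand), whose protein permeabilises the outer mitochondrial membrane, had 78.6, 80.4, 74.9 and 81.3 CPM in DMSO replicates 1 to 4, against 84.02, 93.1, 86.6 and 89.7 CPM in 4-OI replicates 1 to 4. All 4-OI libraries exceeded all DMSO libraries. Its increase was 12.1% (log2 fold change 0.16, standard error 0.03, edgeR adjusted p = 0.000740).

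Bbc3 (chromosome 7, 16308393 to 16318205, plus strand) encodes PUMA, a BH3-only protein that sets BAX and BAK free from their inhibitors. It had 13.5, 14.5, 15.4 and 13.5 CPM in DMSO replicates 1 to 4, against 10.04, 11.3, 10.3 and 9.99 CPM in 4-OI replicates 1 to 4. The lowest DMSO library was above the highest 4-OI library. Bbc3 fell by 26.6% (log2 fold change -0.45, standard error 0.06, edgeR adjusted p = 8.54e-06).

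Pmaip1 (chromosome 18, 66458533 to 66465565, plus strand) encodes NOXA, a BH3-only protein that binds MCL1. It had 21.5, 21.4, 22.2 and 20.8 CPM in DMSO replicates 1 to 4, against 16.8, 15.8, 16.96 and 17.5 CPM in 4-OI replicates 1 to 4. Here too the groups did not overlap, and the SD of each was under 1 CPM. Pmaip1 fell by 21.8% (log2 fold change -0.36, standard error 0.05, edgeR adjusted p = 7.75e-06). In the authors' TPM, 13.1, 14.8, 13.9 and 12.3 in DMSO replicates 1 to 4, against 12.1, 9.89, 12.1 and 11.2 in 4-OI replicates 1 to 4, the groups were also apart but closer, and the limma test of log2(TPM + 1) gave -0.24 (adjusted p = 0.0789).

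The 2 death receptors also parted. Fas (chromosome 19, 34290666 to 34327772, plus strand), the receptor of FAS ligand, was scarce, with 41, 28, 42 and 51 counts in DMSO replicates 1 to 4 and 25, 24, 29 and 32 with 4-OI. Scaled for depth it had 1.56, 1.16, 1.84 and 1.63 CPM in DMSO replicates 1 to 4, against 0.965, 0.850, 0.965 and 1.03 CPM in 4-OI replicates 1 to 4. The groups did not overlap, and DMSO replicate 2 came nearest to the 4-OI range. Fas fell by 38.5% (log2 fold change -0.70, standard error 0.19, edgeR adjusted p = 0.00639), and counting error of 15.7% to 19.1% per library limits its precision.

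Tnfrsf10b (chromosome 14, 69767472 to 69784411, plus strand) encodes the mouse receptor of the death ligand TRAIL. It had 29.7, 27.5, 25.8 and 27.03 CPM in DMSO replicates 1 to 4, against 36.9, 33.8, 35.5 and 35.8 CPM in 4-OI replicates 1 to 4. All 4-OI libraries were higher than all DMSO libraries. The rise was 28.97% (log2 fold change 0.37, standard error 0.05, edgeR adjusted p = 2.92e-06). The ligands of both receptors, Fasl and Tnfsf10, were below the filter, at a mean of no more than 0.01 TPM in either group.

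Sesn1 (chromosome 10, 41809935 to 41908424, plus strand) encodes sestrin 1, which restrains the growth kinase mTORC1. It had 15.8, 16.9, 18.3 and 17.4 CPM in DMSO replicates 1 to 4, against 20.1, 20.4, 21.4 and 21.6 CPM in 4-OI replicates 1 to 4. The groups were separate, with DMSO replicate 3 closest to the 4-OI libraries. The rise was 22.4% (log2 fold change 0.29, standard error 0.05, edgeR adjusted p = 0.000175). Of its relatives, Sesn3 was higher (log2 fold change 0.14, edgeR adjusted p = 0.0134). Without DMSO replicate 4 or 4-OI replicate 3, Sesn3 was not called (edgeR adjusted p = 0.0501 to 0.0505). Nor was it called in the limma tests of log2 TPM (adjusted p = 0.838 to 0.884). Sesn2, at -0.11, was not called (edgeR adjusted p = 0.0654). It was called without 4-OI replicate 2 (edgeR adjusted p = 0.0315) and with a trend on GC content and length (edgeR adjusted p = 0.0477).

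Trp53inp1 (chromosome 4, 11156431 to 11174379, plus strand) encodes a p53-inducible protein that takes part in cell death and autophagy. Its counts were low, at 53, 49, 47 and 61 with DMSO against 79, 70, 95 and 102 with 4-OI, which gave 2.02, 2.04, 2.06 and 1.95 CPM in DMSO replicates 1 to 4, against 3.05, 2.48, 3.16 and 3.27 CPM in 4-OI replicates 1 to 4. The DMSO libraries were nearly equal, and 4-OI replicate 2 was the lowest of its group yet above them. Trp53inp1 rose by 48.6% (log2 fold change 0.57, standard error 0.13, edgeR adjusted p = 0.00158). In the limma test of log2(TPM + 1), which understates changes of such low genes, its log2 difference was 0.24 (adjusted p = 0.0177), below that of Tnfrsf10b (0.36) and Sesn1 (0.28). Its relative Trp53inp2 went the other way (log2 fold change -0.15, edgeR adjusted p = 0.00733), a fall not called in the limma test of log2(TPM + 1). Of 9 paralogues of the members, all tested, 2 rose (Sesn3 and Bok) and 1 fell (Trp53inp2), a smaller share than the 38.8% called over all tested genes.

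Levels can be compared between genes only per length, so the order of the members is given in TPM. With DMSO, Bax led at 187 ± 5.26 TPM (SD, n = 4), followed by Mdm2 at 52.8 ± 1.89 TPM. Bbc3 (21.4 ± 1.95) and Ccng1 (20.04 ± 0.867) came next with overlapping ranges, as did Pmaip1 (13.5 ± 1.05), Tnfrsf10b (13.2 ± 0.824) and Cdkn1a (11.5 ± 1.33), each overlapping the next. Sesn1 (7.96 ± 0.284), Fas (2.02 ± 0.168) and Trp53inp1 (0.555 ± 0.0238) stood below and apart from each other. With 4-OI, Ccng1 and Tnfrsf10b (22.2 ± 1.10 and 17.2 ± 0.587 TPM) stood above Bbc3 (15.3 ± 0.653 TPM) with no overlap, and Cdkn1a, Pmaip1 and Sesn1 formed a run of overlapping neighbours at 11.96, 11.3 and 9.85 TPM. Fas and Trp53inp1 were the 2 lowest members in both groups, at 1.16 ± 0.136 and 0.832 ± 0.0862 TPM with 4-OI.

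**Figure D3:**
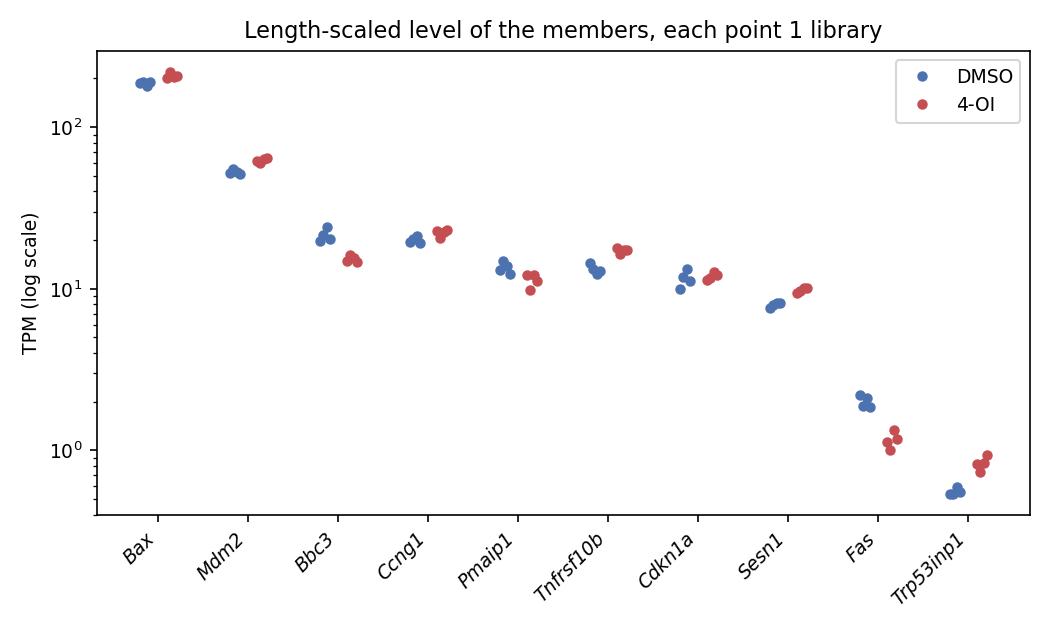
TPM of each member on a log axis, each point 1 library, DMSO in blue and 4-OI in red. Members are ordered by their DMSO mean, from Bax (187 TPM) to Trp53inp1 (0.555 TPM), and Tnfrsf10b passes Bbc3 in the 4-OI libraries.

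Other p53 targets, from a list of 30 genes of which 27 were tested, also went both ways: 9 were higher, 7 lower and 11 not called, with a median log2 fold change of 0.11. Over all tested genes 19.3% were higher and 19.6% lower. With DESeq2, 9 genes of the list were higher and 5 lower. In the limma tests of log2 TPM, 5 to 8 were higher and 3 lower. Abhd4, a lipid hydrolase, moved most, from 36.6 ± 1.06 CPM with DMSO to 80.7 ± 3.20 CPM with 4-OI (SD, n = 4), or 1.14 as a log2 fold change (edgeR adjusted p = 1.83e-15). Plk3, a polo-like kinase, rose from 25.1 ± 1.78 CPM with DMSO to 36.2 ± 0.870 CPM with 4-OI (SD, n = 4), and Ak1, an adenylate kinase, had a log2 fold change of 0.39. Trp53i11 was the member of the list that fell most, from 5.73 ± 0.505 CPM with DMSO to 3.30 ± 0.234 CPM with 4-OI (SD, n = 4). Perp, Gdf15 and Ptprv were below the filter.

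Of p53 and its regulators, 16 of 18 were tested, 3 were higher, none was lower and the median log2 fold change was 0.01. That is a smaller share than the 38.8% called over all tested genes. The 3 were the checkpoint kinase gene Chek2, from 28.3 ± 1.08 CPM with DMSO to 36.6 ± 1.04 CPM with 4-OI (SD, n = 4), Trp53bp1 (0.17), whose product binds damaged chromatin, and Cdkn2a (0.11). Trp53bp1 was not called in the limma test of log2(TPM + 1). The p53 relatives Trp63 and Trp73 were below the filter, Trp63 with 0 to 3 counts per library and Trp73 with 0 in every library.

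The rest of the BCL-2 family, 10 tested of 12, had 1 gene higher and 4 lower, and its median log2 fold change was -0.12, where all tested genes had 19.3% higher and 19.6% lower. Of the 4 that fell, 3 are survival genes. Mcl1, which NOXA binds, went from 355 ± 7.91 CPM with DMSO to 298 ± 8.67 CPM with 4-OI (SD, n = 4), a difference that was called (log2 fold change -0.25, edgeR adjusted p = 1.91e-07). Bcl2l1, the gene of BCL-XL, went from 80.5 ± 1.16 CPM with DMSO to 70.5 ± 1.69 CPM with 4-OI (SD, n = 4), a difference that was called (log2 fold change -0.19, edgeR adjusted p = 2.33e-05), and Bcl2 had a log2 fold change of -0.18. The fall of Bcl2 was not called in the limma test of log2(TPM + 1). Calls of the other 2, Bid (-0.16) and the BAX relative Bok (0.09), ended without any 1 of 5 of the 8 libraries (adjusted p = 0.0556 to 0.0985 and 0.0690 to 0.166). Bak1, the other pore former, had a log2 fold change of -0.07 and was not called (edgeR adjusted p = 0.106; called without 4-OI replicate 2, adjusted p = 0.0264). Bik, below the filter, had 1, 1, 1 and 3 counts in the DMSO libraries against 7, 5, 6 and 10 with 4-OI (two-sided exact permutation p = 0.0286, the smallest that 4 against 4 allow, and 0.114 after adjustment over the 4 genes tested this way).

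Downstream of mitochondria, all 17 genes of the apoptosome, the caspases and their inhibitors were tested: 2 were higher, 5 lower and 10 not called (median log2 fold change -0.03), a share near the 38.8% called over all tested genes. Among the genes of inhibitor of apoptosis proteins, Birc3, Birc2 and Birc5 were lower and Xiap, at 0.07, was not called (edgeR adjusted p = 0.0800; called higher with library totals, adjusted p = 0.0244). Birc3 went from 20.5 ± 0.602 CPM with DMSO to 13.3 ± 0.914 CPM with 4-OI (SD, n = 4), a difference that was called (log2 fold change -0.63, edgeR adjusted p = 1.71e-08), Birc2 had a log2 fold change of -0.30, and Birc5, which also acts in mitosis, one of -0.24. Birc2 was not called in the limma test of log2(TPM + 1). The protease gene Htra2 (-0.14) and cytochrome c, Cycs (-0.10), were lower as well. Diablo (0.13), whose product antagonises those inhibitors, was among the genes called higher. Diablo was not called without any 1 of 5 libraries (edgeR adjusted p = 0.0708 to 0.129), nor with DESeq2 (adjusted p = 0.0938). Cycs was not called without any 1 of 3 libraries (edgeR adjusted p = 0.0528 to 0.0546). Nor was it called in the limma tests of log2 TPM (adjusted p = 0.447 to 0.535).

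At the cell surface, 10 of 15 genes of death ligands, other death receptors and adaptors were tested, with 1 higher, 4 lower and a median log2 fold change of -0.03, where all tested genes had 19.3% higher and 19.6% lower. Fadd, the adaptor that joins FAS and the TRAIL receptor to caspase 8, went from 10.9 ± 0.542 CPM with DMSO to 8.31 ± 0.507 CPM with 4-OI (SD, n = 4), a difference that was called (log2 fold change -0.39, edgeR adjusted p = 7.45e-05). The decoy receptor gene Tnfrsf23 (-0.33) and Cflar (-0.19), which encodes the caspase 8 inhibitor FLIP, also fell, and Bid, counted in this list too, was the other gene lower. Tnfrsf1a, a TNF receptor, rose from 56.1 ± 1.17 CPM with DMSO to 65.9 ± 2.38 CPM with 4-OI (SD, n = 4). Casp8 had a log2 fold change of 0.01 and was not called (edgeR adjusted p = 0.802).

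**Figure D4:**
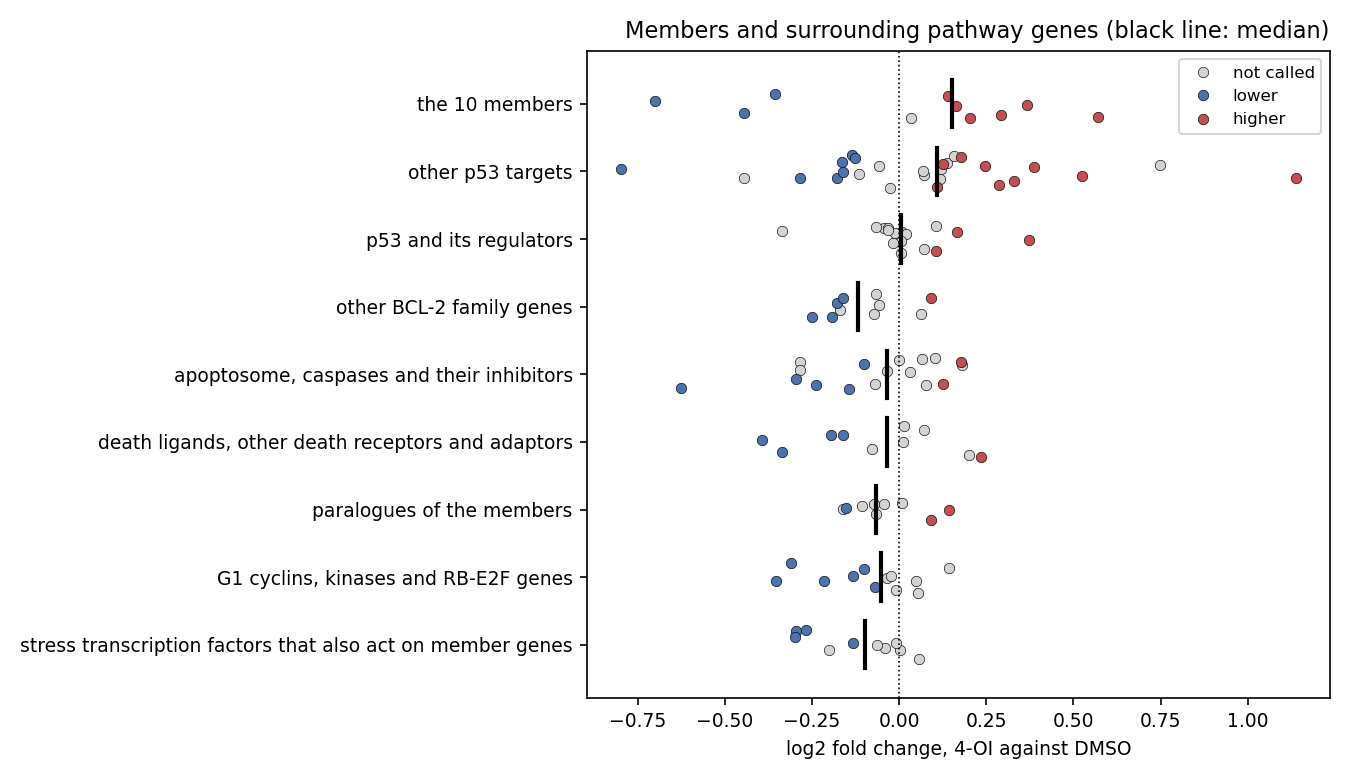
Log2 fold change, 4-OI against DMSO, of the tested genes of the 10 members and of 8 lists around them (1 point per gene, jittered vertically; black line: median); red is called higher, blue lower, grey not called. The medians run from -0.12 in the other BCL-2 family genes to 0.15 in the members, and every list but the p53 regulators, the G1 genes and the stress factors holds calls in both directions.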

How the data were processed

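PolyA RNA of 8 libraries was sequenced on an Illumina instrument, per the labels' protocols. Per the submitters' processing notes, cutadapt 2.3, STAR 2.7.8a and RSEM 1.3.3 were used, with the build GRCm38; roles, annotation release and strand setting are unstated there. The authors deposited expected counts per gene, all whole numbers, and TPM, which the authors scaled for length; their FPKM was not used. Columns were matched to libraries by the description labels. Where 1 symbol stood on several rows, the row with the highest mean kept it. Of the genes overlapping a member in GENCODE M21, none had over 5 counts in any library.

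Expected counts were fitted with edgeR 4.0.16 in R 4.3.3 (filterByExpr with a minimum count of 10, TMM, two-sided quasi-likelihood F test, no covariates, Benjamini-Hochberg adjustment over 13531 genes). A gene was called at an adjusted p under 0.05. Standard errors were derived from the F values. Alternatives used DESeq2 1.42.0 and limma 3.58.1 with a trend on log2(TPM + 1). Within a group, any pair of libraries had a chi-square per degree of freedom of 1.89 to 4.80, more than counting error alone gives. The pairs with 4-OI replicate 4 were highest, at 3.58 to 4.80, and the other pairs were at 3.25 or lower. Such spread does not show that the cultures were separate. Each library was counted once. The coefficient of variation between libraries that the fit took as common to all genes was low, at 3.10%. Of the 5253 genes called, 87.3% changed by less than 1.5-fold. The procedure was also run on simulated counts with the same spread setting for every gene and with independent libraries. That run cannot show how it handles gene-to-gene differences in spread or shared cultures. The members and lists were chosen with earlier results of these data known. Named genes are the members, Trp53, up to 4 called genes per list by size of change, and any count of 5 or fewer. Mdm4, Sesn2, Bak1, Bik, Xiap, Casp8, Atf4, Cdk4, Cdk6 and the genes below the filter were added after their values were seen. Results for 2 lists, G1 cell cycle genes and stress factors, stand in the closing section. The values of 1 list gene are not reported here.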

Additional observations from a re-analysis of the deposited data

How the results depend on the processing

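Over 18 alternatives, 171 of 179 values of the 10 members kept their direction and their side of the threshold, 7 lost a call and 1 reversed. Without DMSO replicate 1, Cdkn1a was -0.030 (range without 1 library -0.030 to 0.11) and Ccng1 lost its call (range 0.12 to 0.17). In limma, Ccng1 was 0.14 with log2(TPM + 1), with or without a minimum mean of 1 TPM, and 0.145 with log2(TPM + 0.1). Pmaip1 was -0.24 with log2(TPM + 1) and -0.26 with log2(TPM + 0.1), and Trp53inp1 0.51 with log2(TPM + 0.1), none of them called. The limma fits tested other gene sets, and called 3023, 3000 and 3274 genes, against 5253. Leaving out 1 library gave 4660 to 5165 genes, and the trend on GC content and length, chosen after seeing the data, 5565.

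The replicate numbers are shared between groups, but libraries with the same number did not deviate together (correlations of -0.04 to 0.09, others -0.12 to 0.07), and 2 of 8 correlated best with their own number. With the replicate number as a block 5143 genes were called, and 6 members higher and 3 lower. The block left 0 other BCL-2 genes higher and 1 paralogue higher.

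Counts in the surrounding lists are small and moved more; the cause was not tested. In the limma fits 2 G1 genes, 3 apoptosome and caspase genes, 2 other BCL-2 genes, 3 other p53 targets and 0 paralogues were lower, 0 paralogues were higher, 5 other p53 targets were higher with log2(TPM + 1), and 0 other BCL-2 genes were higher with the minimum mean. With DESeq2, 1 apoptosome gene, 0 other BCL-2 genes and 1 paralogue were higher. With library totals, 1 G1 gene, 2 death receptor genes and 1 stress factor were higher, with no filter 1 G1 gene and 1 paralogue were, and with the GC and length trend 1 stress factor was higher and 2 paralogues were lower. Leaving out 1 library gave 0 to 1 G1 genes, 1 to 2 apoptosome genes, 1 to 2 death receptor genes, 0 to 1 other BCL-2 genes, 0 to 2 paralogues and 0 to 1 stress factors higher, and 0 to 1 p53 regulators and 1 to 3 paralogues lower. Counts of 24 to 51 for Fas and 47 to 102 for Trp53inp1 limit the precision of both.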

Other observations

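Genes of the machinery that p21 inhibits were partly lower. Of 12 G1 cyclin, kinase and RB-E2F genes, all tested, 6 were lower and none was higher (1 was with library totals or with no filter). Their median log2 fold change was -0.05. Over all tested genes 38.8% were called, 19.3% as higher and 19.6% as lower. Ccnd1, cyclin D1, went from 1117 ± 26.5 CPM with DMSO to 874 ± 14.8 CPM with 4-OI (SD, n = 4), a difference that was called (log2 fold change -0.35, edgeR adjusted p = 4.98e-10). Ccna2, cyclin A2, went from 365 ± 4.51 CPM with DMSO to 294 ± 5.34 CPM with 4-OI (SD, n = 4), a difference that was called (log2 fold change -0.31, edgeR adjusted p = 1.35e-09). Ccne2 (-0.22; not called in the limma test of log2(TPM + 1)) and Cdk2 (-0.13) fell by less, and Cdk2 was not called without any 1 of 3 libraries (adjusted p = 0.0551 to 0.0917). Cdk6 and Cdk4 were the other genes called lower. Cdk6 was not called without any 1 of 4 libraries (edgeR adjusted p = 0.0533 to 0.119), nor Cdk4 without any 1 of 2 (0.0567 to 0.0616). Neither was called with library totals. Cdk2, Cdk4 and Cdk6 were not called in the limma test of log2(TPM + 1).

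Of 10 stress transcription factors and related genes known to act on some members, all tested, 4 were lower and none was higher (1 was with library totals or with the GC and length trend), a share near the 38.8% called over all tested genes. Their median log2 fold change was -0.10. Ddit3, which encodes CHOP and is known to act on the TRAIL receptor gene, went from 70.7 ± 3.00 CPM with DMSO to 57.5 ± 1.40 CPM with 4-OI (SD, n = 4), a difference that was called (log2 fold change -0.30, edgeR adjusted p = 7.95e-07). Foxo3, known to act on Bbc3, went from 86.9 ± 3.12 CPM with DMSO to 70.6 ± 1.63 CPM with 4-OI (SD, n = 4), a difference that was called (log2 fold change -0.30, edgeR adjusted p = 2.24e-07). Klf4 (-0.27) and Nfe2l2 (-0.13) were also lower, and Atf4 had a log2 fold change of -0.04 and was not called (edgeR adjusted p = 0.209). Ddit3 fell while the TRAIL receptor gene Tnfrsf10b rose, and Foxo3 fell as Bbc3 did. Each pair sets only 1 member beside its factor, and of the 10 members 6 rose and 3 fell. Whether any of these factors has a part in the members' changes was not tested.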
